A study of Homo sapiens with 20 samples.

Results

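E10 and E14 are a pair of U937T_EVI1-HA clones, that is, derivatives of the human myeloid cell line U937 which carry a cDNA of the transcription factor EVI1 with an HA epitope tag under the control of tetracycline (tet). Tet represses the transgene, and its withdrawal induces it. The comparison described here is that of the clones themselves: all 8 arrays of E10 were set against all 8 arrays of E14, so that 16 of the 20 arrays of the series entered it. Each clone was cultured for 6, 12, 24 and 48 h with tet and without tet, and was hybridized once per time and culture condition to an Affymetrix HG-U133 Plus 2.0 array. E10 and E14 arrays were therefore paired by time and tet, which gave 8 pairs. The other 4 arrays are from lines without the transgene, the empty vector clone P2 (U937T_vec) and parental U937T cells, each cultured for 48 h with tet and without tet. Medium contained puromycin for all lines, and hygromycin for E10, E14 and P2. A difference is always E10 minus E14 on the log2 scale of the deposited intensities, and it was called when its p-value, adjusted over 18302 genes, was under 0.05.

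A clone descends from a single transfected cell. Clones of 1 line share their origin, but may differ in the levels of individual genes that are unrelated to the introduced transgene, and an inducible system is therefore commonly studied in more than 1 clone. U937 cells have the features of early cells of the monocyte and granulocyte lineages and contain serine proteases of the primary granules, which are stored from the promyelocyte stage onwards. EVI1 is a zinc finger protein encoded by the gene MECOM, and is known for its role in hematopoietic stem cells and in myeloid leukemia. Because each clone is 1 clone, the p-values below measure the spread between cultures and arrays of these 2 clones and not between clones in general. With 1 array per culture, the number of arrays limits the precision.

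Both clones had many markers of their lineage. Of 16 measured myeloid and monocytic markers, 9 had a mean above 8 in E10 and 10 in E14, against 0 of 14 lymphoid markers in either clone. Of 11 erythroid and megakaryocyte markers 1 was above 8 in each clone, and of 14 epithelial and fibroblast markers 0 in E10 and 1 in E14. The myeloid markers MPO, ANPEP and FCGR1A were low, with means between 3.42 and 4.98 in the clones. Mean levels over the myeloid list ranged between 8.19 and 8.92 in the E10 arrays and between 8.22 and 8.93 in the E14 arrays. In E10 cells the probe set with the highest mean of MECOM was at 8.52, 9.52, 9.64 and 10.51 without tet at 6, 12, 24 and 48 h, and at 7.14, 7.08, 7.26 and 7.13 with tet. In E14 cells it was at 8.63, 9.92, 9.60 and 9.98 without tet, and at 7.09, 7.06, 7.34 and 7.15 with tet. P2 cells had 5.91 without tet and 6.90 with tet, and U937T cells 6.53 and 6.48. Thus, every culture of a clone without tet was above every culture with tet, as the labels say. The clone cultures with tet, at 7.06 to 7.34, were above all arrays of P2 and U937T, at 5.91 to 6.90. Whether the transgene was fully off with tet was not tested. Between the clones MECOM differed by 0.00 (SE 0.08, adjusted p = 0.99), and the effect of tet withdrawal on it differed by 0.02 (adjusted p = 0.99). The other 4 MECOM probe sets remained between 2.38 and 3.68 in all 20 arrays.

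The arrays of the clones also differed in a measure of RNA integrity. For the transcripts of actin and GAPDH the array holds probe sets at the 3′ and at the 5′ end, and the 3′ signal exceeds the 5′ signal more when RNA is shorter. This 3′ to 5′ difference was between 0.19 and 0.80 on the E10 arrays and between 0.45 and 1.52 on the E14 arrays. It was lower in E10 in 7 of the 8 pairs, with differences of -0.83 and -0.81 at 24 h with and without tet, and was higher in E10, by 0.34, only in the pair at 12 h without tet. That pair also stood apart in the genes. Across the 18302 genes, the differences in this pair correlated with those in the other 7 pairs at r between -0.22 and -0.05, while among the other 7 pairs the 21 correlations ranged between -0.04 and 0.51 with a median of 0.21. They were between 0.23 and 0.51 among the pairs at 6 h, at 24 h and at 12 h with tet. Genes are not independent replicates, and these correlations are a description. Results are therefore given with all 8 pairs, and without the 12 h pair or with the 3′ to 5′ difference added as covariate where this matters.

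Of the 18302 genes, 76 (0.415%) were called between the clones, 24 higher (0.131%) and 52 lower (0.284%) in E10 (limma, 8 pairs as a block). None of them differed by 2-fold. The differences ranged between 0.22 and 0.97 in size, their median fold was 1.32, and 8 of the called genes differed at least 1.5-fold. For 70 of the 76 genes the difference had the same direction in all 8 pairs, against 2.95% of all genes tested (0.727% higher and 2.22% lower in E10). For 8 of them, ATPAF1, ERRFI1, EXO5, SELENON, MTOR, EXOSC10, PER3 and CCNL2, the levels in the 8 E10 arrays did not overlap with those in the 8 E14 arrays, against 0.0546% of all genes tested. More genes were called lower than higher here, but this balance was turned in some other fits: 15 were higher and 10 lower with the probe set of largest spread, 11 and 6 without the 6 h pair with tet, 10 and 6 without the 6 h pair without tet, 12 and 7 without the 12 h pair with tet, and 10 and 7 without the 24 h pair with tet. Without adjustment, 3232 genes had p under 0.05. The pair at 12 h without tet had the same direction as the mean for 71 of the 76 genes, but it was part of the fit that chose them. The counts of direction and of overlap in this paragraph are therefore a description and not a separate check of the calls.

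The number of calls depended on the pairs in the fit. It was 17 without the 6 h pair with tet, 16 without the 6 h pair without tet, 19 without the 12 h pair with tet, 17 and 27 without the 24 h pairs with and without tet, and 97 and 52 without the 48 h pairs with and without tet. Without the pair at 12 h without tet, 1311 genes (7.16%) were called, 583 higher and 728 lower in E10, including all 76. Of these, 954 (72.8%) had the opposite direction in the omitted pair, against 58.2% of all genes. With the 3′ to 5′ difference added as covariate 4 genes (0.0219%) were called, ILDR2, SPTBN1, SELENON and TPSB2, which are all among the 76, and all 76 kept their direction. Of the 31 called genes that are named by rule below, 12 remained called whichever pair was left out: ILDR2, SPTBN1, CTSG, BMP8B, ATPAF1, FBXO6, PRTN3, ERRFI1, CCDC28B, EXO5, SELENON and TPSB2. Among the other 19, the call was lost for 19 without either of the 6 h pairs, for 18 without the 12 h pair with tet or the 24 h pair with tet, for 15 without the 24 h pair without tet, for 6 without the 48 h pair without tet, for 1 (LENG8) without the 48 h pair with tet, and for 0 without the 12 h pair without tet.

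The called genes were unevenly spread over the chromosomes. Chromosome 1 held 23 of the 76 (30.3%) but 9.93% of the genes tested, so that 1.27% of its 1818 tested genes were called, against 0.415% overall. All 8 called genes without overlap between the clones were on chromosome 1, and of the 2 further genes without overlap, which were not called, PCED1A is on chromosome 20 and PSENEN on chromosome 19 (adjusted p = 0.056 each). Of the 23 genes, 10 were higher and 13 lower in E10, and 17 lay before and 6 behind the midpoint of the gene order (GRCh38.p14). The median difference over all tested genes of the chromosome was -0.009, beside -0.011 over all genes. The share of calls on chromosome 1 was 70.6% and 75% without the 6 h pairs with and without tet, 68.4% without the 12 h pair with tet, 76.5% and 48.1% without the 24 h pairs, and 20.6% and 30.8% without the 48 h pairs. It was 12.2% (160 of 1311) without the 12 h pair without tet. Without the pairs as a block 6 genes were called, all of them on chromosome 1, and with the 3′ to 5′ covariate 2 of 4.

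Within chromosome 1, MTOR, EXOSC10 and SRM were next to each other and lower in E10. MTOR encodes the kinase of the TOR complexes. It was at 7.03 to 7.49 with a median of 7.28 in E10, and at 7.51 to 8.14 with a median of 7.70 in E14, a difference of -0.48 (SE 0.05, adjusted p = 0.0012), and -0.42 with the covariate (adjusted p = 0.089). EXOSC10, a nuclease of the RNA exosome, was at 9.07 to 9.21 in E10 and at 9.39 to 9.70 in E14 (difference -0.37, SE 0.05, adjusted p = 0.0097). In neither gene did the clones overlap, whereas they did for SRM, the spermidine synthase gene, at 9.49 to 11.68 in E10 and 9.52 to 11.93 in E14 (difference -0.25, SE 0.05, adjusted p = 0.049, lower in 8 of 8 pairs). SRM, EXOSC10 and MTOR hold the ranks 143 to 145, and the next genes on either side, MASP2 with -0.06 and ANGPTL7 with 0.16, were not called. At 48 h, P2 and U937T cells averaged 7.65 and 7.73 for MTOR and 9.43 and 9.40 for EXOSC10, within the range of E14 and above that of E10. PER3, a component of the circadian clock (-0.37, adjusted p = 0.0068), and ERRFI1 (0.51, adjusted p = 0.0097), were 3 ranks apart and differed in opposite directions. CCNL2, which encodes a cyclin linked to RNA splicing, was at 10.27 to 10.91 in E10 and 10.92 to 11.53 in E14 (difference -0.43, adjusted p = 0.035). With the covariate, the adjusted p of EXOSC10, SRM, PER3 and CCNL2 was between 0.10 and 0.54. MTOR, EXOSC10, SRM, PER3 and CCNL2 were picked with their values known.

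Larger blocks of neighboring genes were not seen. Over runs of 25 tested genes, the largest median difference was -0.111, for SDF4 to GNB1 on chromosome 1, and no run passed 0.3. Over runs of 51 genes the largest median was -0.096. Of the 75 called genes with a chromosome, 10 had another called gene within 3 tested genes.

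The list of primary granule and promyelocyte genes held several genes with higher levels in E10. Of the 18 measured members of this list, 4 were called higher and 0 lower, beside 0.131% called higher among all genes, 14 had a positive difference, and the median difference was 0.13, against -0.011 over all genes tested. The list was drawn up with earlier results of these data known. Its median was above 0 in all 8 pairs, from 0.02 in the pair at 12 h without tet up to 0.31. With the 3′ to 5′ covariate the median was 0.08, and none of the 4 calls was retained. CTSG encodes cathepsin G. Its level was between 10.56 and 12.40 with a median of 12.25 in E10, against 10.28 to 11.87 with a median of 11.48 in E14. The difference was 0.65 (SE 0.07, adjusted p = 0.0017, 8 of 8 pairs), and 0.49 with the covariate (adjusted p = 0.089). In both clones the lowest level was that at 48 h without tet, 10.56 in E10 and 10.28 in E14, and the ranges overlapped although E10 was higher in each pair. PRTN3 encodes proteinase 3, the antigen of many antineutrophil cytoplasmic antibodies. It ranged between 9.60 and 11.83 with a median of 11.71 in E10, and between 9.12 and 11.52 with a median of 11.12 in E14, a difference of 0.53 (SE 0.06, adjusted p = 0.0025, 8 of 8 pairs). With the covariate it was 0.45 (adjusted p = 0.19). The elastase gene ELANE differed less, by 0.30 (SE 0.06, adjusted p = 0.050), with medians of 11.50 in E10 and 11.29 in E14. The difference of CFD, which encodes the complement protease factor D, was 0.42 (SE 0.06, adjusted p = 0.014), with medians of 7.64 in E10 and 7.21 in E14. Both were higher in E10 in 8 of 8 pairs. They differed in their relation to tet. At 48 h, CFD was higher without tet than with tet, at 9.13 and 7.51 in E10 and at 8.79 and 6.97 in E14. ELANE was lower without tet than with tet, at 9.83 and 11.41 in E10 and at 9.28 and 11.30 in E14. ELANE was called in 2 and CFD in 5 of the 8 fits that omit 1 pair.

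The remaining members did not pass the test. PLAC8 was higher in E10 in 8 of 8 pairs, by 0.39 (adjusted p = 0.069). The difference was 0.12 for AZU1, which encodes the protease homolog azurocidin (adjusted p = 0.21, 7 of 8 pairs), and 0.13 for MS4A3, a membrane protein of myeloid precursors (adjusted p = 0.20, 7 of 8 pairs). Levels of CEBPE, a transcription factor of granulocyte maturation, were 8.65 to 9.08 in E10 and 8.56 to 9.07 in E14 (adjusted p = 0.76), and those of MPO, the myeloperoxidase gene, 4.66 to 5.29 in E10 and 4.43 to 5.33 in E14 (adjusted p = 0.95). Thus CEBPE and MPO had almost the same range in both clones, but MPO was low, with means of 4.96 in E10 and 4.98 in E14 beside array medians of 5.25 to 5.35. The called proteases CTSG, PRTN3, ELANE and CFD were higher in E10 in each pair, CFD by only 0.05 at 12 h without tet. The lowest difference of the list was -0.08, that of RAB27A.

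PRTN3, ELANE and CFD lie next to each other and to AZU1 on chromosome 19, and CTSG lies on chromosome 14. Among the 1260 tested genes of chromosome 19, AZU1, PRTN3, ELANE and CFD have the ranks 29 to 32 in the gene order of GRCh38.p14. The genes beyond them, PLPPR3 with a difference of -0.17 and MED16 with -0.09, were not called. Because neighbors were higher together, the regions around the start sites of these genes are shown. They are from RefSeq (GRCh38.p14), comprise 250 bases before and 50 bases after the start, and were found for 4 of the 5 genes, not for ELANE. They read 5′ to 3′ along the gene. Capitals mark GAGGAA, a core motif of PU.1, and TTGCNNAA, a motif of C/EBP proteins, on either strand (TTCCTC and TTNNGCAA).
PRTN3, chr19:840749-841048, plus strand: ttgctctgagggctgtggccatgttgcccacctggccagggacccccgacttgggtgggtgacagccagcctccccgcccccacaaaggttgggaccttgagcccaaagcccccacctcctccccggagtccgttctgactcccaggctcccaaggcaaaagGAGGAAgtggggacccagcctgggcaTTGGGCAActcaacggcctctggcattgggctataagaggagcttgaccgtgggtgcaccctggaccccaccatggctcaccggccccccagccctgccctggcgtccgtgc
AZU1, chr19:827587-827886, plus strand: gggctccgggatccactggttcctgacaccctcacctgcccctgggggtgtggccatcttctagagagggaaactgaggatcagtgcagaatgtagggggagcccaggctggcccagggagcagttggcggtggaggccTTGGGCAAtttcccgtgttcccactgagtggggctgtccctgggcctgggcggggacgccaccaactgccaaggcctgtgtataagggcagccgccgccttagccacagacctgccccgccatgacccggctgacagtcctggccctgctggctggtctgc
CFD, chr19:859414-859713, plus strand: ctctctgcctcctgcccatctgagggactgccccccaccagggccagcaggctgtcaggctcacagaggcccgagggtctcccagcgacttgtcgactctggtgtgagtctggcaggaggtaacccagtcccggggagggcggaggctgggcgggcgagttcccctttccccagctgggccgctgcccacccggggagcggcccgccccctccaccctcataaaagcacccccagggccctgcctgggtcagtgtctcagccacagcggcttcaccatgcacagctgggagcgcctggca
CTSG, chr14:24576201-24576500, minus strand: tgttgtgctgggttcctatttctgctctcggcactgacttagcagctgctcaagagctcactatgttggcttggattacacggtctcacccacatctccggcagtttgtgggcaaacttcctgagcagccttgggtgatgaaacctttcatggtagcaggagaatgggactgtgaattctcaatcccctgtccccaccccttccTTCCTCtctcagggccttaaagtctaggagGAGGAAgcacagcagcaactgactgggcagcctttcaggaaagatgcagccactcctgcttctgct

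PU.1 and C/EBP factors are known regulators of granule genes. In PRTN3 the PU.1 motif begins 88 bases and the C/EBP motif 62 bases before the start. AZU1 has a C/EBP motif 111 bases before the start, CTSG has PU.1 motifs 46 and 16 bases before it, and CFD has neither. The motifs do not overlap with each other. Of all 35116 promoter windows of this length, 27.9% hold GAGGAA and 10.5% hold TTGCNNAA. TAACNG (MYB, CNGTTA on the other strand) and TGTGGT (RUNX1, ACCACA on the other strand), which are held by 20.8% and 13.1% of all windows, were not found in these 4. AZU1, which was not called, shares the C/EBP motif with PRTN3, and CFD, which was called, has none of the 4 motifs.

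The gene with the largest positive difference was ILDR2, which encodes a membrane protein with an immunoglobulin-like domain. Its levels were low, between 4.86 and 5.54 with a median of 5.23 in E10, and between 4.16 and 4.97 with a median of 4.37 in E14. The difference was 0.79 (SE 0.07, 1.73-fold, adjusted p = 0.00032), between 0.56 and 1.16 in the single pairs, and 0.95 with the covariate (adjusted p = 0.00012). At 48 h, E10 averaged 5.27 and E14 4.43, against 3.89 in P2 and 4.30 in U937T cells. SPTBN1 encodes a spectrin of the membrane cytoskeleton. E10 had 7.13 to 8.38 with a median of 7.58, and E14 6.55 to 7.57 with a median of 6.89. The difference was 0.66 (SE 0.06, adjusted p = 0.00032, 8 of 8 pairs), and 0.68 with the covariate (adjusted p = 0.023). Here the control lines were above both clones at 48 h, with means of 8.08 in E10 and 7.28 in E14, against 9.19 in P2 and 9.05 in U937T cells. Its other probe sets on the array had mean levels below 6, and none of them was called, with differences from -0.12 to 0.33.

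Among the further genes called higher in E10, ATPAF1, an assembly factor of the mitochondrial ATP synthase, was at 7.94 to 8.58 in E10 and at 7.52 to 7.86 in E14, so that the clones did not overlap. Its difference was 0.56 (SE 0.07, adjusted p = 0.0041), and a second probe set differed by 0.33 in the same direction in 8 of 8 pairs (adjusted p = 0.066 over all probe sets). BMP8B, a ligand of the bone morphogenetic protein family, was at 8.10 to 9.44 in E10 and 7.56 to 8.90 in E14, with a difference of 0.57 (SE 0.06, adjusted p = 0.0014). FBXO6, which targets glycoproteins for degradation, differed by 0.53 (adjusted p = 0.0097). ERRFI1, a feedback inhibitor of EGFR signaling, was at 6.80 to 7.25 in E10 and 6.04 to 6.73 in E14, without overlap (difference 0.51, SE 0.07, adjusted p = 0.0097). EXO5 encodes a DNA exonuclease and was likewise without overlap, at 7.63 to 8.06 in E10 and 7.13 to 7.54 in E14 (difference 0.47, SE 0.06, adjusted p = 0.0036). Differences were 0.49 for CCDC28B (adjusted p = 0.0018), 0.46 for GIMAP2, a GTPase of the immunity-associated family (adjusted p = 0.031), and 0.43 for FAM20B, a kinase in proteoglycan synthesis (adjusted p = 0.020). With the 3′ to 5′ covariate none of the genes in this paragraph was called (adjusted p between 0.096 and 0.49). In the pair at 12 h without tet their differences were between 0.14 for GIMAP2 and 0.71 for FAM20B. For ATPAF1, FBXO6, ERRFI1 and GIMAP2 the difference was smallest in that pair. The other probe sets of these genes differed by less, by 0.42 and 0.07 for BMP8B, 0.23 for EXO5, 0.11 for FAM20B and -0.03 for CCDC28B. At 48 h, the means of ERRFI1 and ATPAF1 were 6.97 and 8.05 in E10 and 6.40 and 7.60 in E14, while both control lines lay between 6.12 and 6.16 for ERRFI1 and between 7.53 and 7.54 for ATPAF1, and thus on the side of E14.

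Among genes with lower levels in E10, SELENON had the largest difference of all. It encodes selenoprotein N, a protein of the endoplasmic reticulum. In E10 its levels were 4.83 to 5.51 with a median of 5.26, and in E14 6.11 to 6.39 with a median of 6.25, so that the highest E10 array was below the lowest E14 array. The difference was -0.97 (SE 0.08, 1.95-fold, adjusted p = 0.00032), and -1.02 with the covariate (adjusted p = 0.012). It was between -1.56 and -0.72 in the single pairs. At 48 h, E10 averaged 5.21 and E14 6.18, against 6.30 in P2 and 6.19 in U937T cells. Both E14 arrays at 48 h, with 6.26 and 6.11, were within the range of the control arrays, 6.09 to 6.51, and both E10 arrays, with 5.23 and 5.19, were below it.

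The tryptase genes TPSB2 and TPSAB1, whose products are serine proteases of mast cells, were lower in E10 as well. TPSB2 was at 6.03 to 6.66 with a median of 6.23 in E10, and at 6.44 to 7.52 with a median of 6.96 in E14. Its difference was -0.68 (SE 0.07, adjusted p = 0.0012, 8 of 8 pairs), and -0.74 with the covariate (adjusted p = 0.036). TPSAB1 had 5.93 to 6.55 in E10 and 6.21 to 7.48 in E14, and differed by -0.54 (SE 0.08, adjusted p = 0.017, 8 of 8 pairs, called in 4 of the 8 fits that omit 1 pair). The genes are neighbors on chromosome 16 (ranks 52 and 53 of 801) and near-identical copies. The probe sets used for them end in x_at, which marks probes shared with other transcripts, so that the genes cannot be told apart by these values. Of the 5 probe sets named TPSAB1, 3 were lower in E10 in all 8 pairs. Another that ends in x_at differed by -0.21 and was higher in E10 in 3 of 8 pairs. The 1 that does not end in x_at differed by 0.06 and was higher in E10 in 4 of 8 pairs. The tryptase genes on both sides, TPSG1 with 0.00 and TPSD1 with -0.02, were not called.

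IL1RN encodes the antagonist of the interleukin-1 receptor. It had 6.05 to 8.36 with a median of 7.10 in E10, against 6.47 to 8.66 with a median of 8.05 in E14. The difference of -0.62 (SE 0.10, adjusted p = 0.027) was larger at 6 h, where E10 had 7.35 without tet and 7.17 with tet and E14 had 8.37 without tet and 8.41 with tet, than at 48 h without tet, where E10 had 8.36 and E14 8.66, but this dependence on time was not called (adjusted p = 0.58). Its other 3 probe sets differed by -0.08 to 0.06. GAS7 differed by -0.54 (SE 0.09, adjusted p = 0.027), and of its other 4 probe sets 1 was lower in E10 in all 8 pairs, with a difference of -0.36. The remaining genes with large negative differences were TRAPPC10 (-0.64), which encodes a subunit of the vesicle tethering complex TRAPP, RPA4 (-0.60), a homolog of a replication protein A subunit, LENG8 (-0.56), HCRP1 (-0.55), the pseudogene RPS16P5 (-0.51), the mucin gene MUC19 (-0.50), and MIB2 (-0.48), a ubiquitin ligase for Notch ligands. Other probe sets differed by -0.19 for TRAPPC10, -0.01 for HCRP1 and -0.21 to 0.12 for MIB2. The adjusted p of these 7 genes was between 0.012 and 0.049 with 8 pairs and between 0.36 and 0.62 with the covariate. In the pair at 12 h without tet, the differences of these 7 were between -0.19 and 0.00. TPSB2 and SELENON, the genes lower in E10 that stayed called with the covariate, had -0.96 and -0.95 there. The 3′ to 5′ difference was reversed in that pair, and its relation to these values was not tested.

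**Figure D1:**
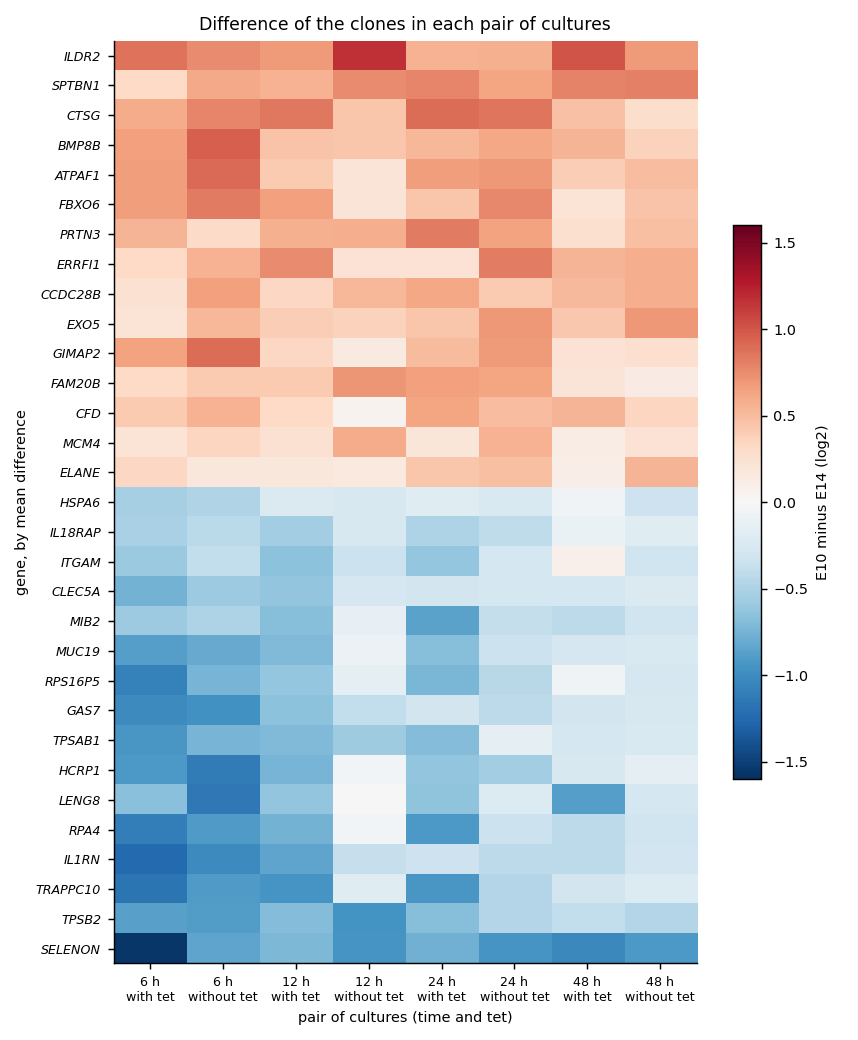
E10 minus E14 difference (log2, color) of the 31 called genes named by rule, in each of the 8 pairs of cultures, ordered by mean difference. The single-pair differences nearest to 0 are 0.56 for ILDR2, 0.32 for SPTBN1, -0.39 for TPSB2 and -0.72 for SELENON. LENG8, RPA4 and HCRP1 are near 0 in the column for 12 h without tet.

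In the list of monocyte and macrophage maturation, 2 of 26 measured genes were called, both lower in E10, beside 0.284% called lower among all genes. Apart from the list of primary granule and promyelocyte genes, each of the other lists with a call had 1, beside 0.415% called among all genes. A single call in a list of this size is not a result about the list. CLEC5A, a C-type lectin receptor of myeloid cells, was at 6.97 to 10.51 in E10 and 7.20 to 11.20 in E14 (difference -0.41, SE 0.07, adjusted p = 0.022, 8 of 8 pairs). ITGAM, the CD11b chain of the integrin Mac-1, was at 5.09 to 10.21 in E10 and 5.05 to 10.53 in E14 (difference -0.39, SE 0.07, adjusted p = 0.049, lower in 7 of 8 pairs), and its second probe set differed by 0.04. The levels of both genes overlapped broadly between the clones, since they also depended on the culture: at 48 h, ITGAM was at 10.21 without tet and 5.14 with tet in E10, and at 10.53 and 5.05 in E14. The median difference of this list was -0.05. CLEC5A was also the called gene among 40 pattern recognition, lectin and Fc receptors, ITGAM that among 27 integrins and adhesion molecules, and IL1RN that among 38 chemokines and cytokines. IL18RAP, a subunit of the interleukin-18 receptor, was the called gene of 36 cytokine and growth factor receptors (-0.37, adjusted p = 0.020), and HSPA6 that of 23 heat shock and immediate early genes (-0.29, adjusted p = 0.049, second probe set -0.11). MCM4 of the replicative helicase was higher in E10 (0.31, adjusted p = 0.049), but its value depended on the probe set: the other 4 differed by 0.87, 0.05, -0.04 and -0.01, and none of the 5 was called over all probe sets. It was the called gene among 37 of the cell cycle, for which the median difference was 0.00. CLEC5A, ITGAM, IL18RAP, HSPA6 and MCM4 each lost the call in 4 to 6 of the 8 fits that omit 1 pair, and with the covariate (adjusted p between 0.36 and 0.58).

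No gene was called in the lists of HLA and antigen presentation (0 of 23 measured), interferon-stimulated genes (0 of 35), cancer-testis antigens (0 of 21), imprinted genes (0 of 22), metallothioneins (0 of 11), protocadherins (0 of 23), antioxidant and NRF2 target genes (0 of 34), the integrated stress response (0 of 26), cholesterol synthesis (0 of 18), glycolysis and hypoxia (0 of 31), ribosome biogenesis (0 of 34), p53 targets (0 of 24), stem and progenitor genes (0 of 28) or EVI1 and its partners (0 of 24). With 0.415% of all genes called, lists of this size would hold few or no calls, and these counts say nothing about the lists. Their median differences were between -0.13 for metallothioneins and 0.05 for cholesterol synthesis. Differences were negative for 8 of the 11 members of the metallothionein list. That list also holds SLC30A1 (0.08) and MTF1 (-0.22), which are not metallothioneins. Differences were also negative for 27 of the 35 interferon-stimulated genes (median -0.04) and for 19 of the 24 genes of EVI1 and its partners (median -0.08). Among all genes tested, 45% had a positive difference.

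The 45 called genes outside the naming rule, 9 higher and 36 lower in E10 and including MTOR, EXOSC10, SRM, PER3 and CCNL2 from above, had differences between -0.49 and 0.40. Among those higher in E10 were PRIM1, the catalytic subunit of the DNA primase (0.40, adjusted p = 0.049, higher in 7 of 8 pairs), the zinc finger factor KLF5 (0.37, adjusted p = 0.027), CD84, a receptor of the SLAM family (0.37, adjusted p = 0.049), and STAR, a cholesterol carrier of mitochondria (0.35, adjusted p = 0.018). Those lower included the protease inhibitor SERPINE2 (-0.35, adjusted p = 0.014) and the leukocyte cytoskeletal genes LPXN (-0.47, adjusted p = 0.041) and LSP1 (-0.31, adjusted p = 0.046). SERPINE2 was at 8.13 to 8.74 in E10 and 8.53 to 9.13 in E14, KLF5 was at 6.53 to 7.07 in E10 and 6.14 to 6.69 in E14, and both overlapped. These 7 genes were picked with their values known, and with the covariate their adjusted p was between 0.24 and 0.61.

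In a fit over all 47806 probe sets, 17 (0.0356%) were called, 11 higher (0.023%) and 6 lower (0.0126%) in E10. Of these, 5 did not stand for a gene above, because another probe set of the gene had a higher mean or because several symbols are annotated. Probe sets of FAM161A (0.57, adjusted p = 0.025), of BLVRA, which encodes a biliverdin reductase (0.49, adjusted p = 0.034), and of PLCXD1 (0.49, adjusted p = 0.044) were higher in E10 in 8 of 8 pairs. A probe set of ZNF462 (-0.37, adjusted p = 0.044) and 1 with several symbols (-0.61, adjusted p = 0.013) were lower in 8 of 8 pairs.

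The differences between the clones were asked for dependence on tet and on time. Neither test called a gene (0 of 18302 each), with 1331 genes at an unadjusted p under 0.05 for tet and 1492 for time. For tet, the smallest p-value belonged to ZBTB7C-AS2, whose difference was -0.38 without tet and 0.34 with tet (adjusted p = 0.066). TULP2 had -0.23 and 0.49, and RAMP2-AS1 0.42 and -0.60 (adjusted p = 0.18 each). These 3 genes were picked by their p-values and none was called, so that their change of sign is a description and not a result. Their levels were at most 5.17 in the 16 arrays. For time, HMOX1, the inducible heme oxygenase, was first (adjusted p = 0.10). At 6 h it was at 6.43 without tet and 6.62 with tet in E10, against 8.21 without tet and 8.59 with tet in E14, while at 48 h E10 had 6.92 without tet and 5.67 with tet and E14 had 7.06 and 5.55. Its mean differences at 6, 12, 24 and 48 h were -1.87, -0.36, -0.21 and -0.01. SYNC, which encodes an intermediate filament protein, had 1.51, 0.65, 0.27 and -0.01, and UCHL5, a deubiquitinase of the proteasome, 1.14, 0.05, 0.13 and 0.19 (adjusted p = 0.42 each). In all 3 the difference was largest at 6 h. Fitted alone, the 4 pairs with tet gave 0 calls and the 4 pairs without tet 1 call (0.00546%).

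At 48 h the clones can be set beside lines without the transgene. E10 and E14 had 0 genes at least 2-fold apart in the same direction both with and without tet. P2 and U937T had 1, while a clone and a control line had between 7 (E14 and P2) and 14 (E14 and U937T). The SD over genes of the mean difference was 0.128 for E10 and E14 and 0.138 for P2 and U937T, against 0.227 to 0.241 between a clone and a control line. The mean is over the cultures with and without tet. Without tet the transgene was on in the clones only, and its share in the distance to a control line was not separated. These comparisons share arrays and were not tested. Of the 76 called genes, E10 was farther than E14 from the mean of the control lines for 49, against 51.4% of all genes tested. For 19 of them only E10 was outside the range of the 4 control arrays (8.22% of all genes), and for 3 only E14 (8.78% of all genes). For 4 both were outside (6.72% of all genes), and for 50 neither (76.3% of all genes). SELENON, ATPAF1, ERRFI1, MTOR and EXOSC10 are genes for which E14 was nearer to the control lines, whereas for SPTBN1 both clones were below them and E14 was farther.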

How the data were processed

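The deposited values are log2 intensities. The authors made them with RMA (background correction, quantile normalization, median polish). Software versions are not given in the sources used here. Values of 20 arrays were used as they are; 54675 probe sets had no missing values and array medians between 5.25 and 5.35. Quantile normalization makes the distributions of the arrays alike, so that a difference common to most genes is not seen. Of the probe sets, 41097 had 1 gene symbol (11777 none, 1801 several). A mean of at least 3 over the 16 arrays was required, and each gene was represented by its probe set of highest mean, giving 18302 genes.

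limma 3.58.1 (R 4.3.3) was used for the clone difference, with the 8 pairs (time and tet) as a block, 7 residual and 5.86 prior degrees of freedom, and Benjamini-Hochberg adjustment over all genes. Pairs follow from the labelled culture conditions; nothing says that E10 and E14 of a pair were cultured side by side. Clone by tet and clone by time were tested as interaction terms in the same design. On simulated data with known differences, 62% of genes changed by 0.3, 90% changed by 0.5 and 100% changed by 1 were called. There were 9 false calls among the unchanged genes of the 18302. The simulated noise was independent between genes and arrays and held no 3′ to 5′ difference between the clones. The number of false calls in the real data can therefore not be read from it. Gene order is that of RefSeq GRCh38.p14. Genes on the Y chromosome are not described.

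Named genes are MECOM, the 12 largest called differences in each direction with the same sign in 8 pairs, up to 4 called members of each of 22 lists, and the first 3 of each interaction. The comparison, these lists and the rule were chosen with earlier results of these data known. Alternatives covered the filter, the probe set of a gene, centring of the arrays, the variance model, the block, a covariate for the 3′ to 5′ difference, all 20 arrays, subsets of pairs and leaving out each pair. Fits without the 24 h pairs, and with the covariate but without the 12 h pair without tet, were added after seeing the data. Probe set differences are limma fits of 47806 probe sets with the same design.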

Additional observations from a re-analysis of the deposited data

Results flagged for a closer look

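In 39 sets of 8 paired differences (38 named genes and the 3′ to 5′ difference), 1 value was set apart from the other 7 by more than the limit of Dixon's test, while chance gives about 1 in 20. It was SELENON in the pair at 6 h with tet, where E10 minus E14 was -1.56, against -1.03 to -0.72 in the other 7 pairs. This E10 array had the lowest SELENON level, 4.83, and the lowest 3′ to 5′ difference, 0.19, of all 16 arrays. Their relation was not tested. SELENON was called without this pair as well (difference -0.88).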

How the results depend on the processing

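With 8 pairs 24 genes were called higher and 52 lower in E10. These counts became 42 and 107 with a mean of at least 5, 15 and 10 with the probe set of largest spread, 67 and 188 with an intensity trend and robust variance, 2 and 2 with the 3′ to 5′ covariate, 12 and 12 with all 20 arrays, 0 and 0 with the pairs with tet, 0 and 1 with the pairs without tet, and 1 and 0 with the pairs at 6 and 48 h. In 2 settings chosen after seeing the data they were 6 and 3 (pairs at 6, 12 and 48 h) and 1 and 0 (covariate, no 12 h pair without tet). Leaving out 1 pair gave 10 to 583 higher and 6 to 728 lower. Without the filter, with the study's filter and with centred arrays the counts stayed within 1.5 times. Called probe sets, 17 in all, became 36 with a mean of at least 5 and 1 with the covariate, and 4 to 4343 with 1 pair left out. Clone by time had 1 call with centred arrays and 2 with the trend, and clone by tet 0 to 1 with 1 pair left out. At 1.5-fold, 6 genes were apart at 48 h. No difference of a named called gene changed direction, but the balance of calls did: more genes were higher than lower with the probe set of largest spread (15 and 10), with the pairs at 6, 12 and 48 h (6 and 3) and without replicate pairs 1, 2, 3 or 5 (11 and 6, 10 and 6, 12 and 7, 10 and 7; both 6 h pairs and the 12 and 24 h pairs with tet). The cause of these changes was not tested.

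Pairs are those of time and tet, not of a replicate label. Without this pairing as a block, 3 genes were called higher and 3 lower, and 1 probe set was called. Over all settings, named genes kept direction and call, or stayed without a call, 440 times, lost the call with the same direction 329 times and gained it 4 times. The count of called genes at least 2-fold apart, 0 with 8 pairs, was 1 with the covariate, without the 12 h pair with tet and with the pairs at 6, 12 and 48 h.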

Other observations

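Single pairs differed in how many genes were at least 2-fold apart. In the pair at 12 h without tet, 52 genes were at least 2-fold higher and 1 at least 2-fold lower in E10, whereas at 6 h with tet 14 were higher and 33 lower, and at 48 h without tet 1 was higher and 1 lower.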
